A study of Mus musculus with 20 samples.

Results

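The 10 genes described here belong to the regulated secretory pathway: the peptide precursor Vgf, the granins Chga, Chgb, Scg2 and Scg3, the convertases Pcsk1 and Pcsk2, their binding proteins Pcsk1n and Scg5, and the carboxypeptidase Cpe. The 10 genes were taken by name from the 78258 genes of an exonic count table, and all 10 passed the filter on low counts, as did 28564 genes in all. RNA came from lumbar dorsal root ganglia, levels 4 to 6, of 10 male mice, 1 day after one sciatic nerve had been cut. Each mouse gave 1 library from the uninjured (contralateral) and 1 from the injured (ipsilateral) side, which makes 4 groups of 5 libraries.

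The Ahr cKO mice were Ahr fl/fl and carried Thy1CRE-ERT2/EYFP, a transgene in which the Thy1 promoter drives a tamoxifen-inducible Cre recombinase and a yellow fluorescent protein. Control mice were Ahr f/f or f/+, and the labels give no transgene for them, so loss of Ahr and presence of the transgene cannot be told apart between the genotypes. Titles of the control libraries read wildtype and their library names read ff. Every mouse received tamoxifen (100 mg/kg, 5 daily doses) at 17 weeks of age, was operated 4 weeks later, and contributed both sides, so the contralateral ganglia belong to operated animals. One label field names a spinal cord injury, whereas the protocol describes cutting of the sciatic nerve, which was followed here. The strain is not given in the sources used here.

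Sensory neurons package neuropeptides and neurotrophins in dense-core vesicles. Granins are acidic cargo proteins that aggregate in the late Golgi, help these vesicles form, and are themselves cut into peptides. Convertases cleave precursors at paired basic residues, carboxypeptidase E trims the basic residues left at the new ends, and the mature peptides are released from cell bodies, central terminals and growing tips. Vgf is a precursor of this kind that nerve growth factor and neuronal activity induce, and it is a familiar marker of nerve injury in these ganglia.

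Promoter sequences are shown because several of these genes are textbook targets of the cyclic AMP response element (CRE), to set the motif beside how each gene responded. RefSeq (GRCm38.p6) sequences were matched by symbol for 8 of the 10 genes, with Vgf and Cpe unmatched. The full palindrome TGACGTCA was found, on either strand, in the 250 bases before the start of Scg2, Chgb and Pcsk1, 3 of 8 genes, against 1.55% of all 32851 promoters in the table. The shorter core TGACG, which lies inside the palindrome, was present in 7 of 8 genes against 17.8% of promoters. Capitals mark TGACG or its complement on either strand. The 4 stretches run from chr13:75089757-75089821 (plus strand, Pcsk1), chr1:79440076-79440105 (minus strand, Scg2), chr2:132781559-132781588 (plus strand, Chgb) and chr12:102554841-102554905 (plus strand, Chga).
Pcsk1: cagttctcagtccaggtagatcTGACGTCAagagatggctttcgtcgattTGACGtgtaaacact
Scg2: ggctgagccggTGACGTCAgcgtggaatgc
Chgb: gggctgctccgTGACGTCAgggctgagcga
Chga: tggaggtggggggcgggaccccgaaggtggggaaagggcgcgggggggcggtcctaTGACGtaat
The palindrome spans bases 78 to 71 before the start in Pcsk1, 68 to 61 in Scg2 and 72 to 65 in Chgb, and Chga has the core alone at bases 44 to 40. The start is that of RefSeq, and the Scg2 and Chgb stretches lie within an exon annotated in GENCODE M21. As given below, Pcsk1 rose after injury, Chgb and Chga were called lower in control mice, Chgb by a call that 4 of the 5 control mice could each end when left out, and Scg2 was not called. The part of these letters in the responses was not tested. The core of an AhR response element, GCGTG, was found on either strand in Scg2, Scg3 and Chga, 3 of 8 genes, against 28.2% of promoters. The AP-1 letters TGANTCA were in Pcsk1n alone, 1 of 8 genes, against 6.75% of promoters. A match of letters is a description of the window and not evidence of a bound factor.

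Libraries held 76150333 to 118537209 counts, and the 10 genes had between 5682 (Scg5) and 79069 (Scg3) counts per library, so the spread between mice, and not counting, set the precision. On the uninjured side Ahr, the targeted gene, spanned 21.3 to 27.2 CPM (TMM-normalised counts scaled to library size) among control libraries. Among cKO libraries it spanned 19.5 to 20.99 CPM, and these ranges did not overlap. In the ipsilateral libraries the ranges were 30.2 to 38.1 and 28.9 to 36.8 CPM. Its difference was not called on either side (log2 fold change -0.25, edgeR adjusted p 0.103, and -0.11, adjusted p 1). All 18 sensory neuron markers were detected, with summed levels of 14937 to 17976 CPM per library. Of the sympathetic and chromaffin markers, cells that are also rich in granins, Dbh and Hand2 were under 1 CPM in every library. Th, which a class of sensory neurons also expresses, had group means of 91.8 to 119.4 CPM and was called lower after injury in control mice (log2 fold change -0.38, edgeR adjusted p 0.0146) and not in cKO mice (-0.10, adjusted p 0.532). Phox2a was called higher in both genotypes, with means of 0.0981 CPM uninjured and 0.761 CPM injured in control mice, and of 0.119 and 0.601 CPM in cKO mice. The part of these cells in the values of the 10 genes was not tested.

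Levels can be compared between genes only per length, and for that CPM were divided by the kilobases of merged exons of each gene. In control contralateral libraries Scg3 (259 CPM per kb) and Cpe (253) led. Scg2 (162) and Pcsk1n (160.1) followed, then Chga (62.2), Scg5 (50.4), Chgb (50.04) and Vgf (49.0). The convertases were lowest, Pcsk2 at 34.7 and Pcsk1 at 17.1 CPM per kb. On the injured side Vgf had 142 CPM per kb and moved from the eighth to the fifth place, while Pcsk1 remained the last at 26.4. Of the summed per-length level of the 10 genes, Vgf made up 4.46% in control contralateral and 12.2% in control ipsilateral libraries, and 3.60% and 12.5% in cKO.

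**Figure D1:**
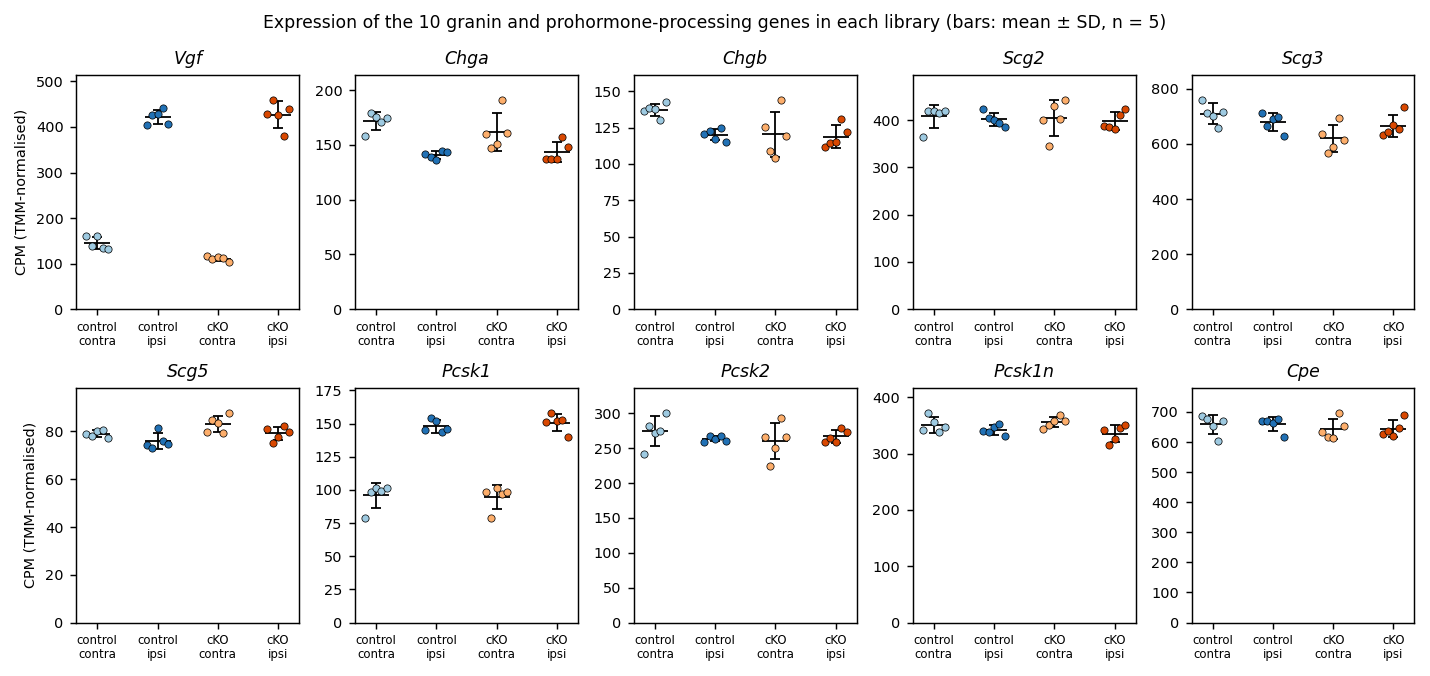
TMM-normalised CPM of each of the 10 genes (vertical axes, from 0) in the 4 groups of genotype and side (horizontal axes). Points are libraries, and bars are the mean ± SD of 5 libraries. Vgf and Pcsk1 are higher on the injured side in both genotypes without overlap, and Vgf is lower in cKO than in control on the uninjured side.

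The first question was how each gene responded to nerve transection, ipsilateral against contralateral. Vgf rose most among the 10 genes in both genotypes, 2.90-fold in control and 3.84-fold in cKO mice, and Pcsk1 rose in both. Chga fell in both genotypes, to 0.821-fold and 0.885-fold, and Chgb in control mice, to 0.877-fold. The other 6 genes were called in neither genotype. In control mice 4 of the 10 genes were called, 2 higher and 2 lower, where the background was 29.9% of all tested genes (13.8% higher and 16% lower). In cKO mice 3 were called, 2 higher and 1 lower, against a background of 31.3% of all genes (16.2% higher and 15.1% lower). The shares called therefore lie near the background in both genotypes. The median log2 fold change of the 10 genes was -0.05 in control (all genes -0.0047) and -0.01 in cKO mice (all genes -0.03).

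Vgf (ENSMUSG00000037428.15) had 161, 139, 160.1, 135 and 133 CPM in the control contralateral libraries of mice 62, 63, 65, 96 and 97, and 405, 427, 428, 441 and 407 CPM in their ipsilateral libraries. In cKO mice 61, 64, 95, 99 and 100 it had 116, 111, 114, 112 and 104 CPM contralaterally and 428, 459.8, 426, 381 and 440.0 CPM ipsilaterally. Every injured-side library was above every uninjured-side library, with a wide gap between 161 and 381 CPM. The fitted change was 2.90-fold in control (log2 fold change 1.53, SE 0.0565, edgeR adjusted p 4.251e-14) and 3.84-fold in cKO mice (1.94, SE 0.0573, adjusted p 8.883e-16). Among the 28564 genes it ranked fifteenth by p in control and ninth in cKO mice. The summed sensory neuron markers had overlapping ranges on the 2 sides, 15542 to 17811 against 15487 to 17151 CPM in control and 14937 to 17976 against 15124 to 16295 CPM in cKO. Of these 18 markers 1 was called higher and 5 lower in control, and 1 higher and 3 lower in cKO mice. Satellite glia markers summed to 1533 to 1698 CPM on the uninjured and 1720 to 1950 CPM on the injured side of control mice. Their sums in cKO mice were 1520 to 1859 and 1651 to 1854 CPM, which overlap. Glul and Kcnj10, 2 of the 6 satellite glia markers, were called higher by edgeR in both genotypes. Glul rose by 0.46 and Kcnj10 by 0.30 on the log2 scale in control mice, and by 0.30 and 0.25 in cKO mice. Of 7 endothelial markers 3 were called higher in control mice by edgeR (Flt1, Tek and Emcn). Endothelial sums were 96.02 to 137 and 113 to 166 CPM on the 2 sides of control mice, and 112 to 165 and 127 to 150.4 CPM in cKO mice, where no marker of the list was called. Their part in the values of the 10 genes was not tested. In whole ganglia a change in RNA per cell and a change in the share of cells that carry it cannot be told apart.

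Pcsk1 (ENSMUSG00000021587.6) encodes the convertase that cuts many precursors early in the maturing vesicle, Vgf among them. Its levels in control mice 62, 63, 65, 96 and 97 were 78.8, 98.6, 101, 99.5 and 101 CPM on the uninjured side and 145, 154, 152, 143 and 146 CPM on the injured side. In cKO mice 61, 64, 95, 99 and 100 they were 98.1, 79.0, 102, 97.01 and 98.4 CPM, and 151, 158, 152, 153 and 139.8 CPM. Mice 62 and 64 were each low on the uninjured side, and the 2 sides did not overlap in either genotype. Pcsk1 rose 1.54-fold in control (log2 fold change 0.62, SE 0.0656, edgeR adjusted p 3.202e-07) and 1.59-fold in cKO mice (0.67, SE 0.0656, adjusted p 1.088e-07). With a pseudocount of 1 on log2 FPKM, the changes were 0.44 and 0.47, and both stayed called. Vgf and Pcsk1 were the 2 genes whose sides did not overlap upward in control mice, where 11.3% of all genes did so, and again in cKO mice, where 11.9% did.

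The chromogranins, aggregating cargo proteins of endocrine granules, were lower after injury where they were called. Chga (ENSMUSG00000021194.7) had 158, 179, 175, 171 and 175 CPM contralaterally in control mice 62, 63, 65, 96 and 97 and 141, 139, 136, 144 and 143 CPM ipsilaterally. Every control mouse was lower on the injured side, and the sides did not overlap. In cKO mice 61, 64, 95, 99 and 100 Chga had 159.7, 147, 150.4, 191 and 160.5 CPM, against 137, 137, 137, 157 and 148 CPM, so that all 5 mice were lower but the sides overlapped. The log2 fold change was -0.28 in control (SE 0.0568, edgeR adjusted p 5.496e-04) and -0.18 in cKO mice (SE 0.0567, adjusted p 0.0217). The call in cKO mice was lost without mouse 61 (-0.165, adjusted p 0.0707), without a filter (adjusted p 0.0822) and with only the libraries compared (adjusted p 0.107).

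Chgb (ENSMUSG00000027350.9) had 131 to 142 CPM contralaterally and 115 to 125 CPM ipsilaterally in control libraries, which did not overlap. The log2 fold change was -0.19 (SE 0.0638, edgeR adjusted p 0.0288), and the call was lost without mouse 62 (adjusted p 0.0682), 63 (0.0798), 65 (0.102) or 97 (0.147) and without a filter (0.0927). In cKO mice Chgb had 104 to 144 CPM and 111 to 131 CPM on the 2 sides, with a log2 fold change of -0.02 (95% interval -0.15 to 0.11, adjusted p 0.854). Chga and Chgb were the 2 genes with lower, non-overlapping injured-side values in control mice, where 12.3% of all genes had them. In cKO mice 0 of the 10 genes had them, against 8.32% of all genes.

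Scg2, the precursor of secretoneurin, had 365 to 420.2 CPM contralaterally and 385 to 423 CPM ipsilaterally in control mice, and 346 to 443 and 381 to 423 CPM in cKO mice. Its log2 fold change was -0.02 in both genotypes (95% intervals -0.14 to 0.09 and -0.14 to 0.09). Scg3, which tethers chromogranin aggregates to the vesicle membrane, had 628 to 712 CPM on the injured and 656 to 761 CPM on the uninjured side of control mice, a log2 fold change of -0.06 (-0.18 to 0.05). In cKO mice it was 0.10 (-0.01 to 0.21). Both genes overlapped between sides in each genotype.

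Among the processing genes other than Pcsk1, none was called in the unblocked edgeR fit. Pcsk2, the second convertase of these vesicles, had a log2 fold change of -0.06 in control (95% interval -0.17 to 0.06) and 0.04 in cKO mice (-0.08 to 0.15). Scg5, the chaperone that brings the Pcsk2 product to activity, had -0.06 (-0.13 to 0.01) and -0.07 (-0.14 to 0.00). Cpe had 0.00 in both (-0.09 to 0.09 in control). Pcsk1n encodes proSAAS, an inhibitor of the Pcsk1 product, and had -0.04 (-0.11 to 0.03) in control and -0.08 (-0.15 to -0.02, edgeR adjusted p 0.0585) in cKO mice. With mouse as a random-effect block, an alternative added after seeing the data, limma-voom called Pcsk1n in cKO mice (-0.086, adjusted p 0.0335). Unblocked edgeR requiring 1 CPM on average also called it (-0.083, adjusted p 0.0344), and edgeR with mouse as a fixed term did not. Exons of 2 antisense genes overlap those of Pcsk2 and exons of Eras those of Pcsk1n. The counting strand is not given in the sources used here, and the antisense genes had mean levels of at most 19.8 CPM against 260.2 CPM or more for Pcsk2, and Eras at most 0.127 CPM.

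**Figure D2:**
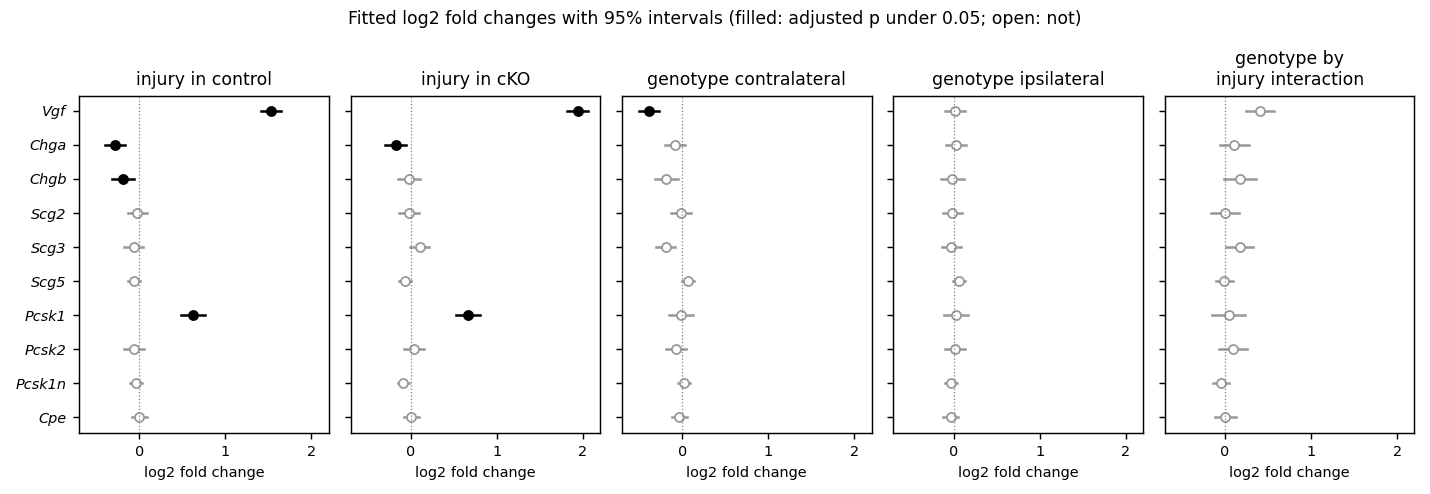
Fitted log2 fold change (horizontal axes) of the 10 genes (rows) in 5 comparisons, with 95% intervals as lines. Filled points passed an adjusted p of 0.05 and open points did not. Vgf and Pcsk1 stand to the right in both injury panels, and Vgf alone is filled in the contralateral genotype panel.

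Ratios within a library show how the convertases shifted against each other. The ratio of Pcsk1 to Pcsk2 CPM was 0.327 to 0.372 on the uninjured and 0.537 to 0.575 on the injured side of control mice, and 0.330 to 0.406 against 0.513 to 0.598 in cKO mice. It was higher on the injured side in all 10 mice, by 0.68 ± 0.0836 (SD, n = 5) on the log2 scale in control and 0.63 ± 0.129 in cKO mice. The ratio of the inhibitor Pcsk1n to Pcsk1 was lower in all 10 mice, with means of 3.69 and 2.31 in control and 3.78 and 2.23 in cKO mice. That of the chaperone Scg5 to Pcsk2 had no common direction, being higher on the injured side in 2 of 5 mice of each genotype. Vgf relative to Chga, a pair added after its values were seen, changed from a mean of 0.852 to 2.996 in control mice, and in cKO mice it went from 0.693 to 2.996. These are ratios of counts of genes of different length and say nothing of molar ratios, but their change within a mouse does not depend on length.

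**Figure D3:**
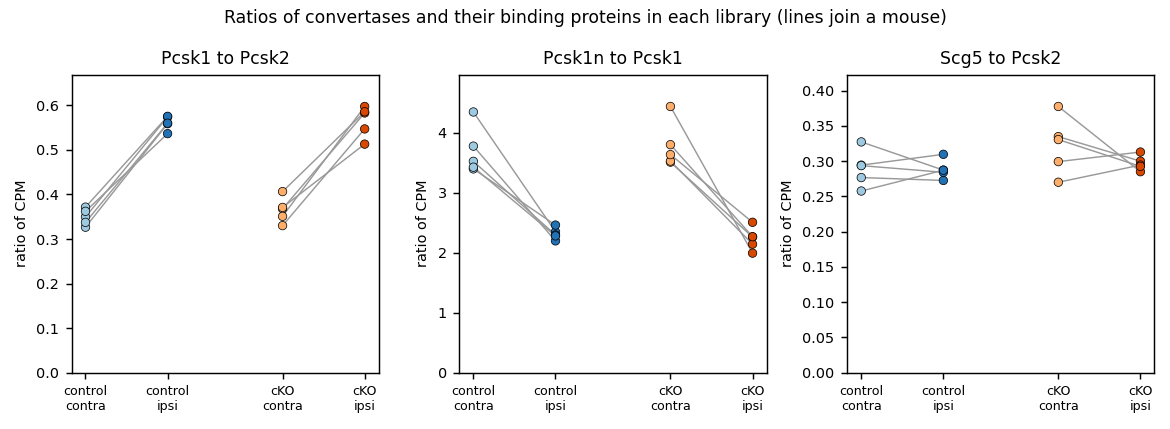
Ratio of CPM (vertical axes, from 0) of Pcsk1 to Pcsk2, Pcsk1n to Pcsk1 and Scg5 to Pcsk2 in each library, with lines joining the 2 sides of a mouse. The first ratio is higher and the second lower on the injured side in all 10 mice, and the third has no common direction.

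The second question was whether the genotypes differed on the uninjured side. Vgf was 0.764-fold as high in cKO as in control and was the 1 gene of the 10 that was called, where 0.0735% of all genes were called (0.049% lower and 0.0245% higher). All 5 cKO libraries, at 104 to 116 CPM, were below all 5 control libraries, at 133 to 161 CPM, and 1.07% of all genes had such lower, non-overlapping values, against 0.448% with higher ones. The log2 fold change was -0.39 (SE 0.0556, edgeR adjusted p 0.00483). Among mice numbered 61 to 65 it was -0.42 (3 control and 2 cKO mice) and among those numbered 95 to 100 it was -0.28 (2 and 3 mice), with adjusted p of 0.410 and 0.591 in these smaller fits. The call was kept without each mouse in turn (-0.42 to -0.35) and lost with only the libraries compared (-0.37, adjusted p 0.310) and on log2 FPKM with a pseudocount of 1 (-0.34, adjusted p 0.0540).

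The other 9 genes were not called on that side. Scg3 had a log2 fold change of -0.19 (SE 0.0530, edgeR adjusted p 0.107), Chgb of -0.19 (adjusted p 0.148), Chga of -0.08, Pcsk2 of -0.08, Cpe of -0.04, Pcsk1 of -0.02 and Scg2 of -0.01, while Scg5 (0.07) and Pcsk1n (0.02) were nominally higher. The contralateral library of cKO mouse 99 was the highest of its group for Chga (191 CPM), Chgb (144), Scg3 (695), Cpe (697) and Pcsk2 (294). It also had the highest summed sensory neuron markers of its group, 17976 CPM, and the lowest summed fibroblast (935 CPM), macrophage (107 CPM) and neutrophil (31.3 CPM) markers. Without this mouse 4 of the 10 genes were called, Chga (-0.15, adjusted p 0.0166), Chgb (-0.26, adjusted p 0.00344) and Scg3 (-0.24, adjusted p 0.00800) beside Vgf, and 3332 rather than 21 genes in all. In the groups as a whole, fibroblast markers summed to 935 to 2236 CPM in cKO and 802 to 1356 CPM in control contralateral libraries, and macrophage markers to 107 to 277 and 107 to 191 CPM. Neutrophil markers summed to 31.3 to 261 and 52.3 to 188 CPM, and erythroid markers to 272 to 833 and 311 to 711 CPM. Muscle markers summed to 1777 CPM in the contralateral library of cKO mouse 100, which had the lowest Vgf level (104 CPM), against 37.2 to 92.8 CPM in the other cKO and 36.1 to 454 CPM in the control libraries. Without mouse 100 the Vgf difference was -0.365 and stayed called. The part of this difference in cell makeup in the values of the 10 genes was not tested. For Vgf, mouse 99 had 112 CPM, in the middle of its group.

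On the injured side the genotypes did not differ beyond the spread of the libraries. Of the 10 genes 0 were called by edgeR, 0 had an unadjusted p under 0.05 and DESeq2 called 0, where 0.007% of all genes were called (0.0035% higher and 0.0035% lower). None of the 10 had non-overlapping groups, which 0.364% of all genes had upward and 0.235% downward. Vgf levels were 422 ± 15.5 CPM for control and 427 ± 29.0 CPM for cKO (SD, n = 5), a log2 fold change of 0.02 with a 95% interval of -0.10 to 0.13. The order of Vgf levels was therefore cKO contralateral (111 ± 4.41 CPM), control contralateral (146 ± 13.9 CPM), and then the 2 injured groups, which could not be ordered. For Pcsk1 the order was the 2 uninjured groups (94.8 ± 9.02 in cKO and 95.9 ± 9.63 CPM in control) and then the 2 injured groups (148 ± 4.61 in control and 151 ± 6.63 CPM in cKO), with no order within either pair. The largest log2 fold change of the 10 genes on this side in absolute value was that of Scg5, 0.06 (-0.01 to 0.13).

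The third question was whether the injury response itself differed between genotypes. Per mouse, the Vgf response on the log2 scale was 1.33 to 1.71 in control mice (mean 1.54 ± 0.159, SD, n = 5) and 1.77 to 2.08 in cKO mice (1.94 ± 0.128), and these ranges did not overlap. The cKO responses were wholly above the control responses for 0.949% of all genes, and wholly below for 0.55%. In the edgeR fit the interaction was 0.41 (SE 0.0783, 95% interval 0.24 to 0.57), with the lowest unadjusted p of all 28564 genes (4.358e-05) but an adjusted p of 0.485. By that test 0 of the 10 genes and 0% of all genes were called. Unadjusted p were under 0.05 for 2 of the 10 genes, Vgf and Scg3 (0.17, p 0.0362), and for 2799 genes in all. DESeq2 called 12 genes, Vgf among them (0.40, adjusted p 0.0212), and edgeR called Vgf when mouse 99 was left out (0.445, adjusted p 0.0450). The interaction was 0.50 among mice 61 to 65 and 0.25 among mice 95 to 100. The same contralateral libraries enter the interaction and the contralateral comparison, and the difference of Vgf in them was -0.39 against 0.02 ipsilaterally. Median log2 interactions of marker lists were -2.73 for muscle, -0.78 for fibroblasts, -0.71 for neutrophils and -0.34 for macrophages. They were 0.04 for sensory neurons and 0.01 for all genes, and no marker was called. The part of cell makeup in the Vgf interaction was not tested. For Pcsk1 the interaction was 0.04 (-0.15 to 0.24), and for Cpe it was 0.00 (-0.12 to 0.13).

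**Figure D4:**
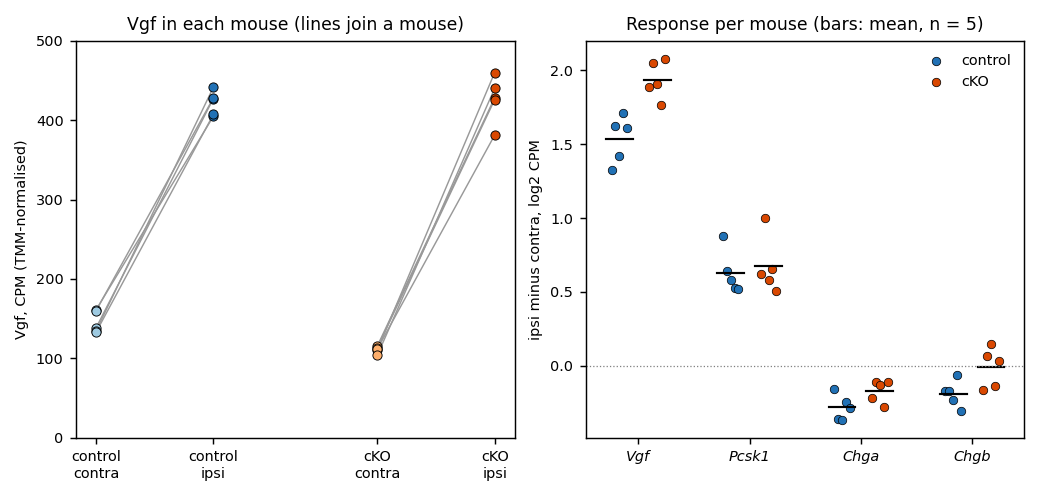
Left, Vgf CPM on each side of each mouse, with lines joining the 2 libraries of a mouse. Right, ipsilateral minus contralateral log2 CPM of Vgf, Pcsk1, Chga and Chgb per mouse, with bars at the mean of 5 mice. The Vgf responses of cKO mice (1.77 to 2.08) lie above those of control mice (1.33 to 1.71), and those of Pcsk1 overlap.

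To describe how the genes varied together within groups, group means were subtracted and the remainders correlated over the 20 libraries, which share depth, dissection and, in pairs, a mouse. Chga and Chgb moved closely together (Pearson r 0.857), as did Scg3 and Cpe (0.890) and Chga and Pcsk2 (0.826). The contralateral library of cKO mouse 99 had the highest level of each of these genes in its group. It also had the highest summed sensory neuron markers of that group (17976 CPM). The part of cell makeup in these correlations was not tested. Pcsk1 varied with Scg2 (0.700) and Pcsk2 (0.696), and mice 62 and 64 had the lowest contralateral levels of all 3 genes in their groups. Pcsk2 thus went with Chga as well as with Pcsk1. Vgf had r between -0.390 (Pcsk2) and 0.258 (Scg3) with the other 9 genes, and Scg5 between -0.294 (Chgb) and 0.327 (Pcsk1n).

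The genes most like Vgf over all 20 libraries, among 13111 genes averaging 5 CPM or more, were Plaur (r 0.995), the receptor of urokinase, Hs2st1 (0.993), a heparan sulfate sulfotransferase, Jun (0.992), the AP-1 factor of axotomy, its antisense neighbour Junos (0.992), and Il4ra (0.992), an interleukin receptor chain. Reads of Jun and Junos cannot be told apart without the counting strand. This likeness is set mainly by the difference between sides. Once group means were subtracted the highest were Ccdc174 (0.755), Nasp (0.749), Tigd2 (0.731), Hcrtr1 (0.678) and Plaur (0.668), so Plaur was the 1 gene in both lists. Of the 10 genes Pcsk1 was nearest to Vgf over all libraries (0.933) but had -0.276 after subtraction.

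Other genes of the pathway were described by lists chosen with earlier results of these data known. Of 20 neuropeptide precursors 8 were called higher and 2 lower after injury in each genotype. Of all genes 13.8% were called higher and 16% lower in control mice, and 16.2% higher and 15.1% lower in cKO mice. Among them Npy, a transmitter of injured large neurons, had 0.503 ± 0.450 CPM uninjured and 5.98 ± 1.44 CPM injured in control libraries, and Grp, an itch-related peptide, 0.0399 ± 0.0296 and 0.958 ± 0.150 CPM (SD, n = 5). Called lower were Sst in control (log2 fold change -0.61, against an uncalled -0.41 in cKO), Calca in cKO (-0.14, against an uncalled 0.03 in control) and Nmb in both (-0.17 and -0.22), with Npy and Grp also called higher in cKO mice.

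Of 19 other peptide-finishing enzymes 4 were called higher and 1 lower in each genotype, shares near the 29.9% and 31.3% of all genes. Cpd, a carboxypeptidase of the Golgi with the same specificity as Cpe, had 147 ± 10.7 and 177 ± 10.1 CPM on the 2 sides of control mice (log2 fold change 0.27, edgeR adjusted p 0.00106), and rose by 0.44 on the log2 scale in cKO mice. Ctsl, a lysosomal protease that also cuts precursors, rose by 0.15 in both genotypes, Ctsb by 0.12 in control and 0.11 in cKO mice, and Ece1 by 0.11 and 0.19. Those called lower were Pcsk7 in control (-0.16, against an uncalled -0.05 in cKO) and Qpct, which caps amino-terminal glutamine, in cKO mice (-0.47, against an uncalled -0.23 in control). Whether these changes differ between genotypes is not shown by a call in 1 of them.

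Of 21 genes of vesicle formation and maturation, control mice had 2 called higher and 4 lower, and cKO mice 4 higher and 2 lower, shares near the 29.9% and 31.3% of all genes. Syt4, a synaptotagmin of maturing vesicles, had 399.7 ± 10.7 and 639 ± 18.3 CPM on the 2 sides of control mice (log2 fold change 0.68, edgeR adjusted p 3.482e-11) and rose by 0.79 in cKO mice. Hid1, needed for vesicle maturation, rose by 0.21 and 0.31. Ica1 and Ica1l, an islet autoantigen and its relative, were called lower in both genotypes (-0.21 and -0.16, and -0.25 and -0.15).

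Of 24 genes of vesicle release, 12 were called lower in control mice and 7 in cKO mice, where 16% and 15.1% of all genes were called lower. Rab27b, which docks secretory granules, had 153 ± 8.71 CPM on the uninjured and 92.4 ± 6.23 CPM on the injured side of control mice (log2 fold change -0.73, edgeR adjusted p 1.131e-07), and -0.47 in cKO mice. Syt7 (-0.48 and -0.24) and Syt10 (-0.40 and -0.72) were also called lower in both genotypes. Syt9 was called lower in control (-0.12, against an uncalled 0.08 in cKO) and Stx1a higher in cKO mice (0.22, against an uncalled 0.07 in control). Between genotypes on the uninjured side 2 of the 24 were called, Cadps (602 ± 18.5 CPM for control, 299.7 ± 30.8 CPM for cKO) and Syt9 (-0.20, adjusted p 0.0142). Cadps, the priming factor of dense-core vesicles, was also called on the injured side (-0.89, edgeR adjusted p 2.658e-09). Thy1, whose promoter drives the transgene, was higher in cKO on both sides (0.77 and 0.63).

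A list of 7 held receptors proposed for peptides of Vgf or proSAAS, other receptors, and 2 sorting receptors. Of these, 2 were called higher and 2 lower in control, and 2 higher and 1 lower in cKO mice, where 29.9% and 31.3% of all genes were called. Gpr37l1, a glial receptor and 1 of the other receptors of the list, rose in both genotypes (log2 fold changes 0.33 and 0.30). Gpr171 also rose in both, from a mean of 0.188 to 0.443 CPM in control libraries. C1qbp, a binding protein of a Vgf peptide, was called lower in both (-0.11 and -0.10), and the sorting receptor Sorl1 in control mice (-0.29, against an uncalled -0.10 in cKO). Of 12 CREB and activity regulators, 6 were called higher in control and 4 in cKO mice, and 0 lower, where 13.8% and 16.2% of all genes were called higher. Crem, a CRE-binding factor, had 8.12 ± 0.7097 and 17.2 ± 0.346 CPM on the 2 sides of control mice (log2 fold change 1.08, edgeR adjusted p 1.217e-10) and rose by 1.00 in cKO mice. Fos rose by 0.65 and 0.77 on the log2 scale, and Crtc3 by 0.26 and 0.21. Creb1 rose by 0.38 in both genotypes, and Atf1 by 0.29 in control mice, against an uncalled 0.15 in cKO.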

How the data were processed

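Libraries of the Illumina Stranded mRNA kit were read as 2 × 150 bp, per the labels' protocols. The authors deposited whole-number exonic counts per gene and an FPKM table. HISAT2, Picard and the builds mm10 and mm39 are named without roles, per the submitters' processing notes; the counting program, annotation and strand setting are not given in the sources used here, so no gene coordinates are taken from the deposited files, and the promoter coordinates are those of RefSeq on GRCm38.p6. The deposited FPKM values were compared with CPM in the 21541 genes with a total of 1000 counts or more. They equalled CPM divided by 1 length per gene, with a largest relative deviation of 4.43e-11%. For 93.0% of 18805 genes with a span the length came within 5% of the gene's span with introns, so FPKM were compared only within a gene. Symbols came from a reference table of gene names, matched by identifier (51487 of 78258 matched). Merged exon lengths came from GENCODE M21 and may differ from the authors' annotation.

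Counts were fitted in R 4.3.3 with edgeR 4.0.16 (filterByExpr with a minimum count of 10 and a minimum total of 15, TMM, robust quasi-likelihood F-test) in 1 model of 4 group means over all 20 libraries. Benjamini-Hochberg adjustment ran over the 28564 genes in each of 5 comparisons, with calls at an adjusted p under 0.05. The SE of a fold change is its size divided by the root of F. The pipeline was run on simulated counts drawn independently for each library. That check held no pairing of mice and no shift in cell makeup, so it does not bear on either. Log2 CPM used a prior count of 2. Replicates are mice. Replicate libraries differed by 5.31 to 58.3 times the counting variance over 40 pairs. No source used here mentions molecular identifiers.

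The 2 libraries of a mouse are paired by its number in the labels. Correlating what remained after subtracting group means gave a median of 0.186 (-0.0546 to 0.361), above 0.1 in 7 of 10 mice. One shortened title was resolved by its library name. The members and lists were chosen with earlier results of these data known. Named genes are the 10 members, Ahr, Thy1, Cadps, the 2 highest and 2 lowest log2 fold changes among called genes of each list and comparison, and the 5 genes most like Vgf by Pearson correlation. Alternatives were DESeq2 1.42.0, RLE scaling, omitting the filter, requiring 1 CPM on average, limma 3.58.1 on log2 FPKM (pseudocounts 1 and 0.1), a replicate block, only the libraries compared, the range of mouse numbers as a term, and leaving out each mouse. Separate fits within each range of mouse numbers, the random-effect block for injury and the Vgf to Chga ratio were chosen after seeing the data. Some genes of the lists are not reported here.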

Additional observations from a re-analysis of the deposited data

Results flagged for a closer look

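In 60 sets of 5 values (10 genes in 4 groups, and the responses of 10 genes in 2 genotypes), 1 value stood apart in 5 sets, with a Dixon ratio above 0.71. Chance alone would give about 3 such sets, or 1 in 20. In control mouse 62 the contralateral library was low for Scg2 (365 CPM, ratio 0.893) and for Pcsk1 (78.8 CPM, ratio 0.877), and its Scg2 response was the highest of the control mice (0.21, ratio 0.776). In cKO mouse 64 the contralateral library was low for Pcsk1 (79.0 CPM, ratio 0.797). In control mouse 97 the ipsilateral library was low for Cpe (617 CPM, ratio 0.775). The contralateral library of mouse 62 also had the highest summed fibroblast (1356 CPM), neutrophil (188 CPM) and muscle (454 CPM) markers of its group, and that of mouse 64 had the highest fibroblast (2236 CPM), macrophage (277 CPM), neutrophil (261 CPM), erythroid (833 CPM) and endothelial (165 CPM) markers of its group. Their part in the Scg2 and Pcsk1 levels was not tested. Leaving out mouse 62 or 64 did not end a call of Pcsk1.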

How the results depend on the processing

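Of 50 fold changes (10 genes in 5 comparisons) 8 were called, and none of these 8 changed sign under any alternative run. The number of the 10 genes called changed from 1 to 2 with DESeq2 (Scg3 added, -0.19), 0 with log2 FPKM and a pseudocount of 1 and 0 with only the libraries compared for the contralateral genotype comparison, and from 0 to 1 with DESeq2 for the interaction. For injury in control the 4 became 3 without a filter. In cKO the 3 became 2 without a filter and with only the libraries compared, and 4 with 1 CPM required, on log2 FPKM with either pseudocount and with the random-effect block. Leaving out a mouse gave 3 to 4 genes for injury in control, 2 (without mouse 61) to 5 (without mouse 99) in cKO, 1 to 4 contralaterally (4 without mouse 99) and 0 to 1 for the interaction. Without mouse 99 the injury calls in cKO also took in Scg3 (0.16, adjusted p 0.0273) and Scg5 (-0.09, adjusted p 0.0466). The replicate block with mouse as a fixed term kept the counts of 4 and 3 called genes for injury and 0 for the interaction, and the random-effect block kept 1 and 0 for genotype. That block, added for injury, called Pcsk1n in cKO mice (-0.09, adjusted p 0.0335), as did log2 FPKM (-0.11) and requiring 1 CPM on average (-0.08).

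Over all genes the 21 contralateral calls became 1010 with DESeq2, 50 unfiltered, 45 with 1 CPM required on average, 6 and 7 on log2 FPKM with pseudocounts of 1 and 0.1 and 2 with only the libraries compared. Leaving out a mouse gave 5 to 3332, with 178 without mouse 61, 3332 without mouse 99, 22 without mouse 62 and 5 to 12 without each of the others. The 0 interaction calls became 12 with DESeq2 and 43 without mouse 99. Of the contralateral calls 33.3% were higher in cKO, 65.7% with DESeq2 and 44.4% with 1 CPM required. The causes of these shifts were not tested.

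Signs that changed belonged to uncalled fold changes near 0. On log2 FPKM with pseudocounts of 1 and 0.1, Cpe became -0.013 and -0.015 for injury in control, -0.018 and -0.020 in cKO and -0.005 and -0.005 for the interaction, contralateral Scg2 became 0.007 and 0.007, and contralateral Pcsk1 0.004 and 0.005. Contralateral Scg2 was 0.003 with only the libraries compared. The Scg2 interaction was 0.006 without a filter and 0.001 with the replicate block. The Cpe interaction was -0.001 with DESeq2, -0.001 with RLE and -0.002 with 1 CPM required. Without each mouse in turn, injury in control ranged from -0.079 to 0.011 for Scg2 and from -0.032 to 0.036 for Cpe. Injury in cKO ranged from -0.057 to 0.020 for Chgb, -0.064 to 0.014 for Scg2, -0.008 to 0.072 for Pcsk2 and -0.016 to 0.037 for Cpe. The contralateral genotype difference ranged from -0.049 to 0.040 for Scg2 and -0.079 to 0.043 for Pcsk1. The ipsilateral one ranged from -0.010 to 0.057 for Vgf, -0.010 to 0.042 for Chga, -0.054 to 0.005 for Chgb and -0.037 to 0.006 for Scg2. The interaction ranged from -0.043 to 0.055 for Scg2, -0.043 to 0.014 for Scg5, -0.033 to 0.099 for Pcsk1 and -0.028 to 0.040 for Cpe.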
